A study of Mus musculus with 12 samples.

Results

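The transcripts described here are the 4 adult globin genes *Hba-a1*, *Hba-a2*, *Hbb-bs* and *Hbb-bt* and the erythroid heme enzyme gene *Alas2*, 5 of the 55487 genes in the count table. They were taken by symbol, and were chosen because the globins had stood out as low in ARG1+ microglia in earlier results of these data, so their difference between the populations is given as a description without a test. Bulk RNA-seq was run on 12 libraries of microglia sorted from YARG mice of both sexes at postnatal day 13, 3 libraries each of ARG1- females, ARG1- males, ARG1+ females and ARG1+ males. All mice of all groups carried the YARG reporter, in which YFP follows the stop codon of the endogenous *Arg1* gene, and none was treated. ARG1+ and ARG1- name the YFP-positive and YFP-negative cells of the sort, so the 2 populations are defined by the reporter and not by ARG1 itself. Brains were perfused with cold PBS, the forebrain tissue below the corpus callosum was pooled from several mice per library, and CX3CR1-positive, CD206-negative single cells were sorted after a Percoll gradient. No gate against red blood cells is named in the methods of the study.

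Hemoglobin is a tetramer of a pair of alpha chains and a pair of beta chains, each holding a heme group that binds oxygen. In the GRCm38 reference the adult alpha chains come from *Hba-a1* and *Hba-a2* on chromosome 11 and the adult beta chains from *Hbb-bs* and *Hbb-bt* on chromosome 7. These genes are among the most strongly transcribed in red cell precursors. *Alas2* encodes the 5-aminolevulinate synthase of erythroid cells, which catalyzes the first step of heme synthesis there, while the related *Alas1* does so in other tissues. Reticulocytes, the youngest circulating red cells, still hold globin mRNA.

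Both globin pairs are near-identical copies, which decides how far a read can be tied to 1 gene. In GRCm38 with the GENCODE M21 annotation, *Hba-a1* lies at chr11:32283511-32284465 and *Hba-a2* at chr11:32296489-32297298, both on the plus strand, and *Hbb-bs* lies at chr7:103826534-103828096 and *Hbb-bt* at chr7:103812524-103813996, both on the minus strand. The alpha coding sequences differed at 1 of 426 bases (C381T, *Hba-a1* first) and the beta coding sequences at 1 of 441 (C417T, *Hbb-bs* first), counted from 1 at the A of the start codon. Both differences lie in exon 3, the last of each gene. The 55 coding bases around them are shown in the direction of transcription, from chr11:32284313-32284367, chr11:32297130-32297184, chr7:103826668-103826722 and chr7:103812659-103812713, with the single differing base in capitals, because only a read that covers this base tells the coding parts of a pair apart.
Hba-a1: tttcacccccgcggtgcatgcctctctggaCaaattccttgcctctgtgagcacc
Hba-a2: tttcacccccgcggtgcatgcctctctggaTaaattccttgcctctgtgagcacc
Hbb-bs: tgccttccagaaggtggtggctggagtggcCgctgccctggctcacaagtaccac
Hbb-bt: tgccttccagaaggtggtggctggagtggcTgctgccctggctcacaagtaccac

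The reads were 75 bases long. Of the 625 windows of this length in the longest coding transcript of *Hba-a1*, 389 (62.2%) were also present in *Hba-a2*, and these made up 81.0% of the 480 windows of *Hba-a2*. The beta pair shared 356 windows, 64.3% of the 554 in *Hbb-bs* and 56.6% of the 629 in *Hbb-bt*. Within the coding sequence the shared part rose to 86.9% in the alpha pair and 93.2% in the beta pair. How reads with several equally good positions were counted is not given in the sources used here, so the split between the 2 genes of a pair is uncertain and the sums of each chain type are the firmer values. The mice were of another genetic background, 129S4/SvJae, than the reference whose *Hbb-bs* and *Hbb-bt* pair was counted. The sequences and shared windows given here are those of the reference. What the other background does to the beta counts was not tested.

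**Figure D1:**
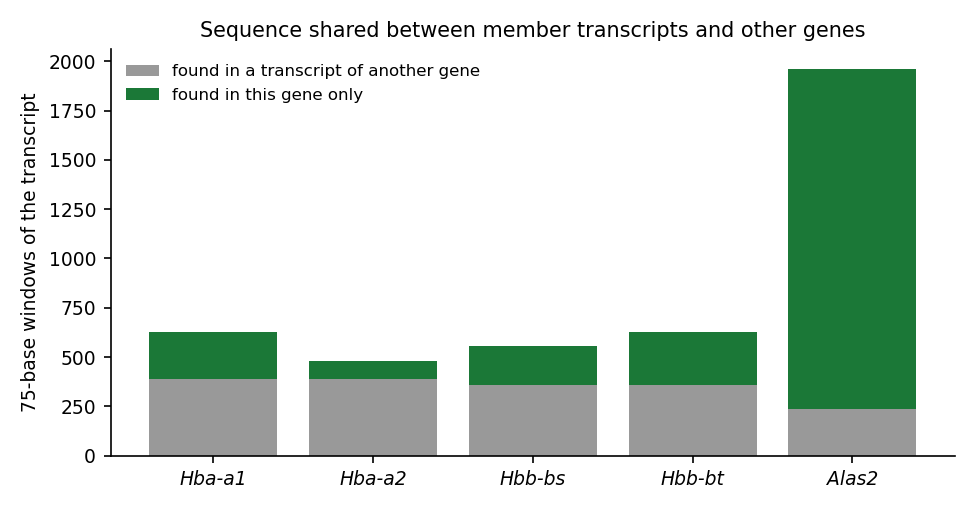
Bars give, for the longest coding transcript of each gene (x axis), the number of 75-base windows (y axis), divided into those also found in a transcript of another gene (grey) and those found in that gene only (green). The shared part is 62.2% in *Hba-a1*, 81.0% in *Hba-a2*, 64.3% in *Hbb-bs*, 56.6% in *Hbb-bt* and 12.1% in *Alas2*.

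*Alas2* raises a different uncertainty. It lies at chrX:150547375-150570638 on the plus strand, inside the span of *Apex2* (chrX:150519519-150589868), a DNA repair endonuclease gene on the minus strand, and 238 of its 1963 windows (12.1%) were found in *Apex2* transcripts. The SMART-Seq method does not mark the strand of the RNA, so reads of *Alas2* exons and of *Apex2* RNA at the same place cannot be told apart.

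The globin genes are turned on in red cell precursors by GATA and CACCC-binding factors. The 250 bases before the start site of each of the 5 genes were searched for their motifs. All 5 genes matched the RefSeq promoter table for GRCm38.p6, whose start sites differ from those of GENCODE. The windows of the alpha pair were identical over 247 of 247 overlapping bases, while those of the beta pair agreed at 51.0% of bases. Both strands were searched for 2 GATA motifs, AGATAA as well as TGATAA. The other motifs were CACCC with its longer form CCACACCC, which overlaps it, then the CCAAT box, and the TATAAA box with its variant CATAAA. Of the GATA motifs, at least 1 was found in *Hba-a1*, *Hba-a2*, *Hbb-bs* and *Alas2*, where AGATAA occurs in 9.99% and TGATAA in 7.94% of the 32851 promoters of the table. CCACACCC was found in *Hbb-bs* only, against 3.20% of all promoters. CACCC was found in all 5 genes (52.0% of all promoters) and CCAAT in the 4 globins and not in *Alas2* (33.8%). TATAAA was found in *Hbb-bt* and *Alas2* (12.4%) and CATAAA in none of the 5 (10.8%). These matches describe the letters and show no binding. Stretches of 30 bases are shown in the direction of transcription with the motifs in capitals, around CCAAT for the globins at chr11:32283564-32283593, chr11:32296381-32296410, chr7:103827995-103828024 and chr7:103813989-103814018, and around the GATA motif, here on the opposite strand, for *Alas2* at chrX:150547319-150547348.
Hba-a1: gtagagcaagcacaaaccagCCAATgagaa
Hba-a2: gtagagcaagcacaaaccagCCAATgagaa
Hbb-bs: gagCCACACCCtggtaagggCCAATctgct
Hbb-bt: gggtaaCACCCtggcATTGGCCAATctgct
Alas2: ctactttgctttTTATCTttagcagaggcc

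Total counts lay between 30954399 and 60625170 in ARG1- libraries and between 28356659 and 46569667 in ARG1+ libraries. Values are counts and CPM, the per-million share of the TMM-scaled library total. A count of 0 allows up to 3 counts, at most 0.102 CPM in these libraries. The reads carry no molecular identifiers, so intervals and limits cover counting error only. All 10 microglial genes listed, among them *Tmem119*, were counted in all libraries, with a summed level of 53550 to 88010 CPM. Of these, *Sall1* was higher (450 against 333 CPM, log2 fold change 0.43, adjusted p = 0.0239 by edgeR's quasi-likelihood test, and up to 0.0546 with 1 library left out) and 6 were lower in ARG1+ microglia. Of all genes tested, 6.44% were higher and 9.42% lower. The *Arg1* gene itself gave 52 reads in replicate 15 and 2 in replicate 8 of the ARG1+ females and 0 in the other 10 libraries, so its count checks the sort in few libraries.

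The 2 alpha chain genes were counted in all 6 ARG1- libraries and in few ARG1+ libraries. *Hba-a1* had 22, 68 and 31 counts in ARG1- female replicates 1, 2 and 13, and 12, 13 and 12 counts in ARG1- male replicates 5, 6 and 14. In ARG1+ microglia it had 0 counts in all 3 female replicates, and 15, 5 and 0 counts in male replicates 11, 12 and 16. ARG1- female replicate 2 was the highest library, and ARG1+ male replicate 11 reached the range of the ARG1- males, so the populations overlapped. The mean level of *Hba-a1* was 0.665 ± 0.520 CPM in ARG1- and 0.0743 ± 0.137 CPM in ARG1+ microglia (SD, n = 6), 8.96-fold lower in the latter and 31.7-fold lower without ARG1+ male replicate 11.

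*Hba-a2*, the second alpha gene, had 5, 56 and 59 counts in ARG1- females and 26, 13 and 6 in ARG1- males, in the same order of libraries. Of the ARG1+ libraries, male replicate 11 held 8 counts and the other 5 held 0. The populations overlapped here too, because the 8 counts in that library exceeded the lowest ARG1- libraries. Its mean level was 0.642 ± 0.491 CPM against 0.0303 ± 0.0742 CPM (SD, n = 6), a 21.2-fold difference that rests on ARG1+ male replicate 11, the 1 ARG1+ library with reads.

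*Hbb-bs*, the beta chain gene with the most reads, had 78, 509 and 230 counts in ARG1- females and 96, 78 and 79 in ARG1- males. It had 0 counts in the 3 ARG1+ female replicates and 76, 3 and 0 counts in ARG1+ males. Scaled to library size, all 6 ARG1+ libraries lay below all 6 ARG1- libraries, although ARG1+ male replicate 11 at 1.73 CPM came near the lowest ARG1- library at 2.34 CPM. The mean was 4.41 ± 4.11 CPM in ARG1- and 0.298 ± 0.700 CPM in ARG1+ microglia (SD, n = 6), a 14.8-fold difference. It was 350-fold without ARG1+ male replicate 11 and 9.22-fold without ARG1- female replicate 2.

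*Hbb-bt*, the second beta gene, had 7, 78 and 32 counts in ARG1- females, 31, 18 and 8 counts in ARG1- males, 0 counts in the ARG1+ females and 3, 1 and 0 counts in the ARG1+ males. No ARG1+ library exceeded 3 counts. Its mean was 0.727 ± 0.641 CPM against 0.0149 ± 0.0274 CPM (SD, n = 6), a 48.9-fold difference that rests on 4 reads in ARG1+ microglia. It was 173-fold without ARG1+ male replicate 11 and 32.5-fold without ARG1- female replicate 2. *Hbb-bs* and *Hbb-bt* were thus the 2 of the 5 genes whose populations did not overlap. Across all 16908 genes tested, the 6 ARG1+ libraries lay below the 6 ARG1- libraries in 1110 (6.56%) and above them in 589 (3.48%), and since this contrast chose the genes, nothing is read from the comparison.

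*Alas2* did not share the pattern of the globins. It had 11, 0 and 0 counts in ARG1- females, 18, 0 and 41 in ARG1- males, 8, 1 and 17 in ARG1+ females and 47, 0 and 0 in ARG1+ males. High and empty libraries stood in both populations, and the mean was 0.337 ± 0.475 CPM in ARG1- and 0.307 ± 0.419 CPM in ARG1+ microglia (SD, n = 6). ARG1- female replicate 2, with the most globin reads, held 0 reads of *Alas2*, and ARG1+ female replicate 15, with 0 globin reads, held 17. *Apex2*, whose span contains *Alas2*, had 177 to 557 counts in ARG1- and 135 to 423 in ARG1+ libraries. Its part in the *Alas2* counts was not tested.

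**Figure D2:**
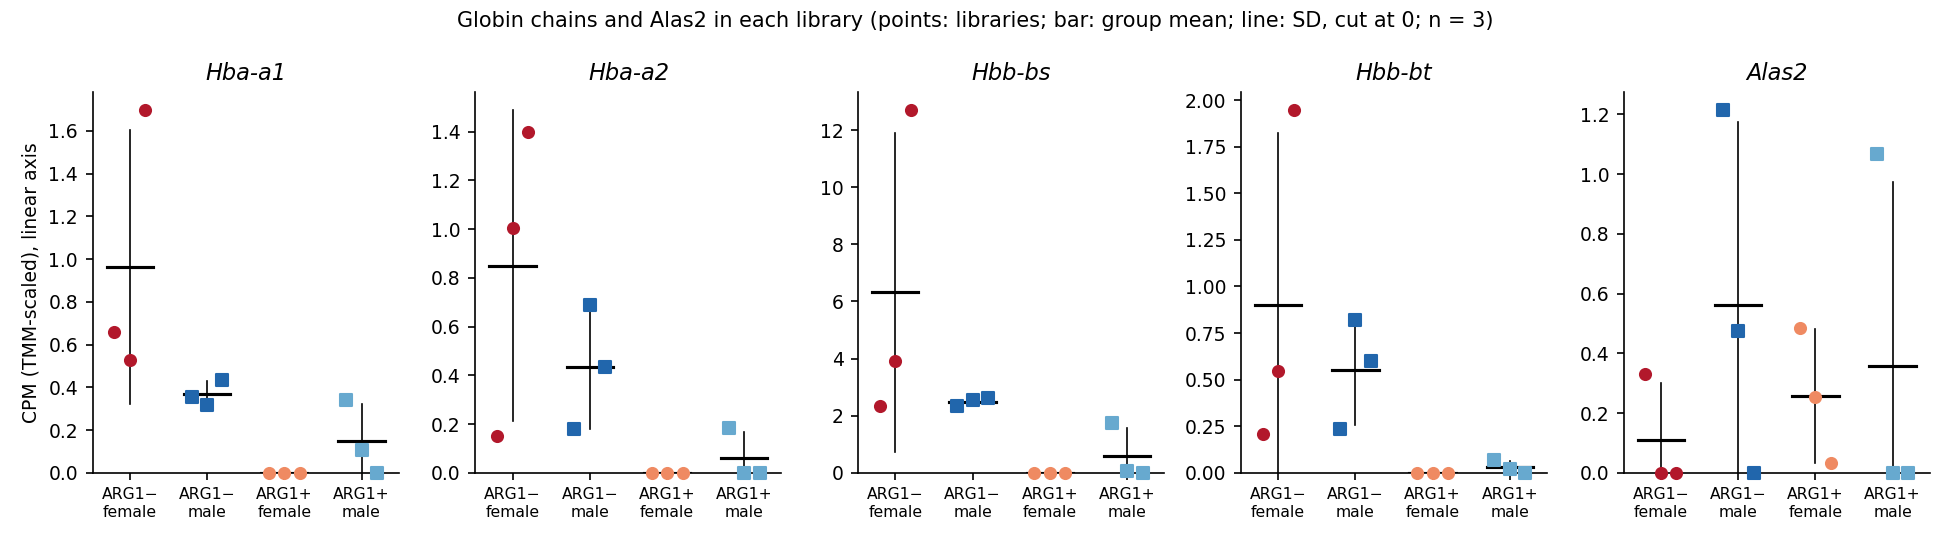
Points give the CPM (linear y axis, scaled separately for each gene) of each gene in the 3 libraries of each group (x axis), with the group mean as a bar and the SD as a line. The globins are at 0 in the 3 ARG1+ female libraries and highest in 1 ARG1- female library, which reaches 12.7 CPM for *Hbb-bs*, while *Alas2* varies between 0 and 1.21 CPM with no order by population.

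Because the copies of a pair share most of their sequence, the counts were also summed. The 4 globins together had 112, 711 and 352 counts in ARG1- females, 165, 122 and 105 in ARG1- males, 0 in each ARG1+ female library, and 102, 9 and 0 in ARG1+ males. As CPM of the unscaled total this was 3.04 (95% exact binomial interval 2.51 to 3.66) in ARG1- female replicate 1, 16.9 (15.7 to 18.2) in replicate 2 and 5.81 (5.22 to 6.45) in replicate 13. The ARG1- males held 4.35 (3.71 to 5.06), 3.94 (3.27 to 4.71) and 3.19 (2.61 to 3.86) CPM. In ARG1+ males the values were 2.41 (1.96 to 2.92) in replicate 11 and 0.193 (0.0884 to 0.367) in replicate 12. The 4 libraries without a globin read allow up to 0.0882 to 0.106 CPM by the limit of 3 counts. The interval of ARG1+ male replicate 11 overlapped that of the 2 lowest ARG1- libraries, while the other 5 ARG1+ libraries lay below all ARG1- intervals.

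The summed globin level was 6.44 ± 5.63 CPM in ARG1- and 0.418 ± 0.934 CPM in ARG1+ microglia (SD, n = 6), 15.4-fold lower in the latter. A single library carried most of the ARG1+ value. Without ARG1+ male replicate 11 the ARG1+ mean was 0.0378 CPM and the difference 170-fold, and without ARG1- female replicate 2 the difference was 10-fold. In females alone, where ARG1- microglia held 9.03 CPM and ARG1+ microglia no globin read, the level was at least 95.9-fold lower in ARG1+ microglia, taking the limit of 3 counts in each library, and at least 49.7-fold lower without ARG1- female replicate 2. With *Alas2* added, the 5 genes summed to 6.78 ± 5.43 CPM against 0.724 ± 1.32 CPM, a 9.36-fold difference. In these bulk libraries, fewer cells that hold globin RNA and less globin RNA per cell cannot be told apart. In total the globins made up at most 16.9 CPM of any library total, so they bear little on the library totals.

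The difference had the same direction for both chain types. The alpha chains summed to 1.31 ± 0.935 CPM in ARG1- and 0.105 ± 0.209 CPM in ARG1+ microglia, and the beta chains to 5.13 ± 4.71 CPM and 0.313 ± 0.727 CPM (SD, n = 6). The beta chains had 3.15, 4.73 and 2.91 times the reads of the alpha chains in ARG1- females and 3.34, 3.69 and 4.83 times in ARG1- males. The ratio was 3.43 in ARG1+ male replicate 11, within the ARG1- range, and 0.8 in ARG1+ male replicate 12, where it rests on 9 reads. *Hbb-bs* alone gave 58.2% to 75.2% of the globin reads in the ARG1- libraries and 74.5% in ARG1+ male replicate 11.

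Compared per kilobase of exon, the mean level in ARG1- microglia was 5.74 CPM per kilobase for *Hbb-bs*, 1.03 for *Hbb-bt*, 0.963 for *Hba-a2*, 0.819 for *Hba-a1* and 0.140 for *Alas2*. *Hbb-bs* had more reads than each of the other globin genes in all 6 ARG1- libraries. *Hbb-bt*, *Hba-a2* and *Hba-a1* lay within their SD of one another, so no order among them is given, also because of the shared sequence.

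Alpha and beta chain levels were set against each other in the ARG1- libraries, since the choice of genes fixes only the difference between populations. Over these 6 libraries, log2(CPM + 0.5) of the summed alpha and beta chains had a Pearson's r of 0.964 (exact permutation p = 0.0056, two-sided) and a Spearman's rho of 0.943 (exact permutation p = 0.0167, two-sided), the 1 relation tested. Without ARG1- female replicates 2 and 13, the libraries farthest from the median alpha level, r was 0.766 over 4 libraries. With 4 libraries the relation could not be tested at 0.05. *Hba-a1* and *Hbb-bs* alone, a pair chosen after the data were seen, had an r of 0.922 (exact permutation p = 0.114). As a description, *Alas2* had negative r values from -0.66 to -0.51 with the 4 globins over the same libraries, and 0.48 with *Apex2*.

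**Figure D3:**
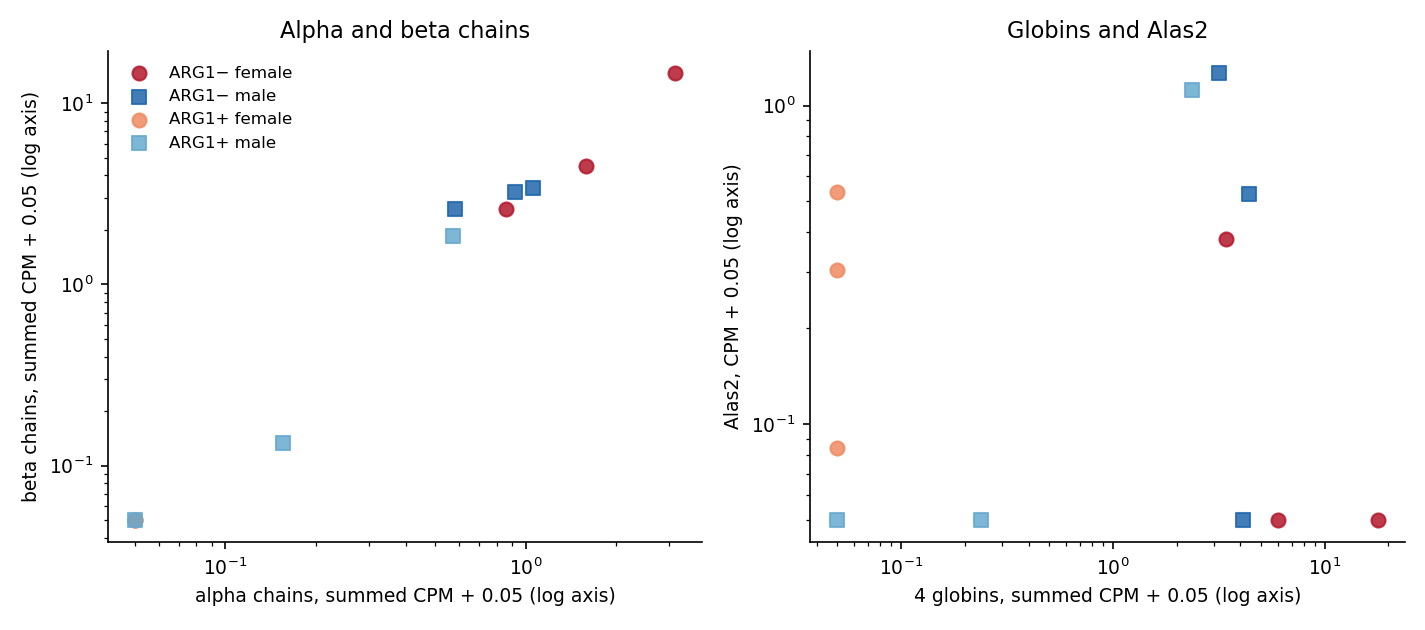
Each point is a library, colored by population and shaped by sex, on log axes of CPM + 0.05. On the left the summed beta chains rise with the summed alpha chains, and the 3 ARG1+ female libraries and ARG1+ male replicate 16 lie on each other at 0 counts in the corner. On the right, *Alas2* shows no such rise with the summed globins, and the library with the most globin, at 17.7 CPM, has 0 counts of *Alas2*.

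Sex was not used to choose the genes, and the study sampled both sexes in each population. The difference between females and males was tested within ARG1- and within ARG1+ microglia, with the difference of these as an interaction, by the edgeR quasi-likelihood test, adjusted by Benjamini-Hochberg over all 16908 genes. Replicates are pools of mice from separate litters according to the study, and the labels do not say which libraries share a litter. Of the 5 genes, 0 passed an adjusted p under 0.05 in any of the 3 comparisons, in which 0.0946%, 0.0355% and 0% of all genes passed.

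In ARG1- microglia, *Hbb-bs* was at 6.32 ± 5.58 CPM in females and 2.50 ± 0.140 CPM in males (SD, n = 3), a log2 difference of 1.34 (SE 1.40, adjusted p = 0.855). The female spread came from replicate 2. *Hba-a1* was at 0.962 ± 0.640 CPM in females and 0.369 ± 0.0599 CPM in males (adjusted p = 0.81), and the adjusted p was 0.934 for *Hba-a2*, 0.947 for *Hbb-bt* and 0.838 for *Alas2*. Of the 5 genes, 0 had an unadjusted p under 0.05 there, which 10% of all genes had.

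In ARG1+ microglia the globins were at 0 in all 3 females and were counted in 2 of 3 males, with an adjusted p of 1 for each of the 5 genes. *Hbb-bs* was at 0.597 ± 0.979 CPM in ARG1+ males (unadjusted p = 0.00897) and *Hba-a1* at 0.149 ± 0.174 CPM (unadjusted p = 0.00982), the 2 of 5 genes under an unadjusted 0.05, which 3.12% of all genes were. For the interaction the same 2 genes had unadjusted p values of 0.00914 and 0.00872 and adjusted p values of 0.473 and 0.47. Of all genes, 9.32% had an unadjusted p under 0.05 in the interaction. With DESeq2's Wald test *Hbb-bs* passed in the interaction (adjusted p = 0.049), with 214 genes in all, and 0 of the 5 genes passed in either population. A sex difference in these genes was therefore not shown at 3 libraries per group.

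The other globin genes of the 2 clusters were then counted. The 8 embryonic and minor globins listed (*Hba-x*, *Hbb-y*, *Hbb-bh0*, *Hbb-bh1*, *Hbb-bh2*, *Hbb-bh3*, *Hbq1a* and *Hbq1b*) had 0 counts in all 12 libraries, so all globin reads were counted on the 4 adult genes. A count of 0 still allows up to 3 counts per gene and library.

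Red cell membrane and lineage genes summed to 114 to 169 CPM in ARG1- and 110 to 147 CPM in ARG1+ libraries, above the globins, most of it from *Tspan33* and the erythropoietin receptor gene *Epor* (36.9 ± 9.33 against 29.6 ± 10.4 CPM, adjusted p = 0.446). Of 21 listed genes with a match, 8 had 0 counts in all 12 libraries, among them the band 3 anion exchanger gene *Slc4a1* and the Kell antigen gene *Kel*, with *Trim10*, *Trim58*, *Car1* and *Cldn13*. Of the 6 that could be tested, 0 passed an adjusted p under 0.05 between the populations in edgeR's quasi-likelihood test, against 15.9% of all genes tested. Of the same 6, 0 had an unadjusted p under 0.05, for which the share of all genes is not given here. The most abundant was the tetraspanin gene *Tspan33*, at 90.6 ± 15.6 CPM in ARG1- and 75.4 ± 7.81 CPM in ARG1+ microglia (SD, n = 6, adjusted p = 0.177). *Klf1*, the erythroid Krüppel-like factor that activates the adult beta globin genes, was looked up after its values were seen. It had 32 counts in ARG1- female replicate 2, the library with the most globin, and 0 in the other 5 ARG1- libraries, but also 8, 6 and 1 counts in ARG1+ libraries with 0 globin reads. Other rare genes of this list went the other way. *Aqp1* had 67 and 21 counts, *Gfi1b* 8 and *Epb42* 6, all in ARG1+ libraries, with 0 in all ARG1- libraries. *Rhd* had 24 counts in ARG1+ and 3 in ARG1- libraries.

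Among genes that are abundant in reticulocytes but shared with other cells, more fell than rose in ARG1+ microglia. Of 16 tested, 6 were lower (9.42% of all genes tested were) and 1 was higher (6.44% were), with a median log2 fold change of -0.40 against 0.06 for all genes tested. The glutathione peroxidase gene *Gpx1* fell from 728 ± 47.7 CPM to 384 ± 94.8 CPM (log2 fold change -0.92, SE 0.14, adjusted p = 0.0017). The polyubiquitin gene *Ubb* fell from 507 ± 36.5 CPM to 282 ± 34.0 CPM (log2 fold change -0.84, SE 0.09, adjusted p = 3.97e-04). *Slc25a37*, which encodes the mitochondrial iron importer mitoferrin, rose from 17.5 ± 3.61 CPM to 31.8 ± 8.16 CPM (log2 fold change 0.86, SE 0.20, adjusted p = 0.0142). The list summed to 1911 to 2194 CPM in ARG1- and 1187 to 1497 CPM in ARG1+ libraries, far above the globins. The 2 libraries that stood out for globin, ARG1- female replicate 2 and ARG1+ male replicate 11, had the highest sum of their population, and what the globins and this list share in these libraries was not tested.

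Of 8 heme synthesis genes tested, 1 rose and 0 fell in ARG1+ microglia, where 6.44% of all genes tested rose and 9.42% fell, with a median log2 fold change of -0.10. The gene that rose was *Ppox*, the protoporphyrinogen oxidase gene, at 137 ± 20.8 CPM against 78.1 ± 10.6 CPM (log2 fold change 0.82, SE 0.10, adjusted p = 6.76e-04). *Alas1*, the counterpart of *Alas2* outside red cells, was the most abundant, at 165 ± 22.2 CPM in ARG1- and 160 ± 23.6 CPM in ARG1+ microglia (SD, n = 6, adjusted p = 0.789).

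Heme uptake, breakdown and iron genes moved in both directions. Of 17 tested, 4 rose and 2 fell in ARG1+ microglia, where 6.44% of all genes tested rose and 9.42% fell, with a median log2 fold change of 0.00. The inducible heme oxygenase gene *Hmox1*, which opens the heme ring, rose from 28.7 ± 7.84 CPM to 53.8 ± 6.08 CPM (log2 fold change 0.90, SE 0.18, adjusted p = 0.00544). *Lrp1*, a scavenger receptor that takes up heme bound to hemopexin, rose from 474 ± 128 CPM to 965 ± 175 CPM (log2 fold change 1.02, SE 0.19, adjusted p = 0.00395). The other two that rose were *Slc40a1*, the iron exporter ferroportin, and *Slc11a1*, a phagosomal metal transporter. The constitutive heme oxygenase gene *Hmox2* fell from 227 ± 24.1 CPM to 140 ± 8.67 CPM (log2 fold change -0.69, SE 0.09, adjusted p = 7.41e-04), and the biliverdin reductase gene *Blvra*, which acts on the product of heme oxygenase, fell from 54.2 ± 7.96 CPM to 34.7 ± 5.07 CPM (log2 fold change -0.64, SE 0.14, adjusted p = 0.00746). The ferritin light chain gene *Ftl1* was the most abundant, at 1367 ± 75.2 CPM and 1304 ± 277 CPM (adjusted p = 0.739). Over all these lists, with *Fech* and *Blvrb* counted once, 14 of 45 genes tested differed, 6 higher and 8 lower, where 15.9% of all genes tested differed.

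**Figure D4:**
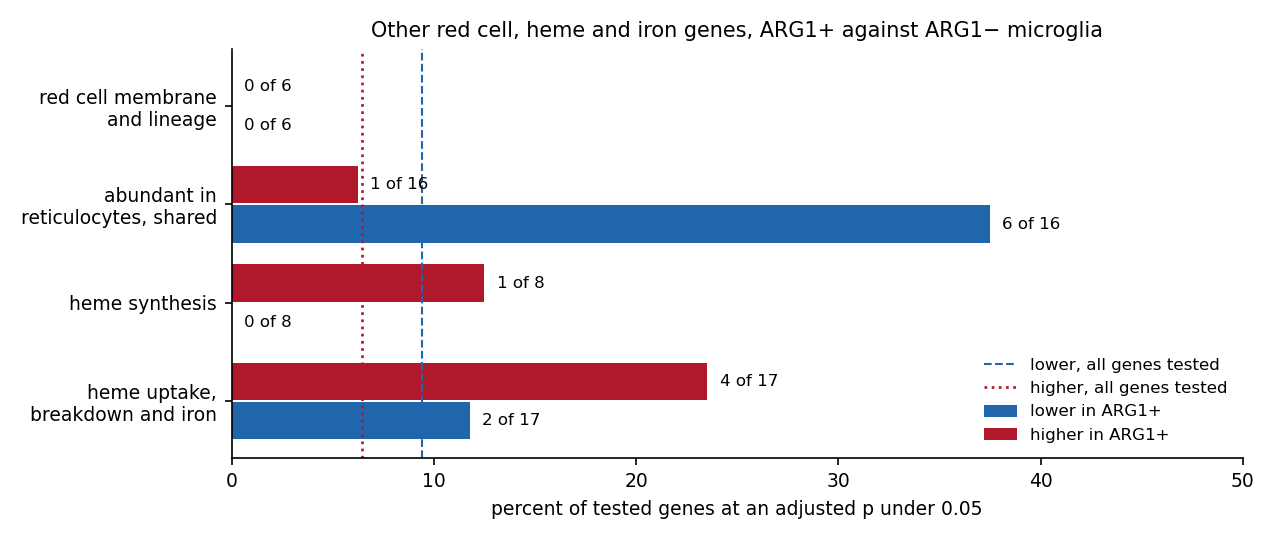
Bars give, for 4 gene lists (y axis), the percent of tested genes (x axis) that rose (red) or fell (blue) from ARG1- to ARG1+ microglia with an adjusted p under 0.05, with the number beside each bar, and the lines give the same percent for all 16908 genes tested. The reticulocyte list has 6 of 16 genes lower, the heme and iron handling list 4 of 17 higher and 2 lower, and the membrane and lineage list 0 of 6 in either direction.

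Markers of other cells that blood or brain tissue could add were read beside the globins. Of all genes tested, 6.44% were higher and 9.42% lower in ARG1+ microglia. Platelet genes had 1 of 5 tested lower in ARG1+ microglia, *Gp9* (28.4 to 14.6 CPM, adjusted p = 0.00933), and the platelet chemokine gene *Ppbp* had 0 counts in all 12 libraries. Monocyte genes had 1 of 4 lower, *Plac8* (6.75 to 1.32 CPM, adjusted p = 0.00466). B cell genes had 2 of 2 lower, *Cd79b* (158 to 74.0 CPM, adjusted p = 4.68e-04) and *Ighm* (792 to 593 CPM, adjusted p = 0.00231). The summed level was 21.4 to 39.5 CPM in ARG1- and 11.4 to 22.6 CPM in ARG1+ libraries for platelets, 9.20 to 18.0 and 3.78 to 10.5 CPM for monocytes, and 886 to 1041 and 598 to 717 CPM for B cells. The median log2 fold change of the tested genes was 0.67 for platelets, -0.18 for monocytes and -0.75 for B cells. For platelets the median lay above 0 although the sum was lower. Most of the platelet sum was *Gp9*, and the other 4 platelet genes tested had fitted values above 0, none of them called.

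The median sums of these 3 lists were lower in ARG1+ libraries, as those of some brain cell lists were, with overlapping ranges for platelets and monocytes. The part of these lists in the globin difference was not tested. Defining genes were rare or patchy. The antibody light chain gene *Igkc* was counted only in ARG1- female replicates 1 and 2, with 78 counts in the latter. The neutrophil genes *S100a8* and *S100a9* were counted only in ARG1- libraries, *S100a8* with 20 counts in female replicate 13 and 17 in male replicate 6 and *S100a9* with 44 in male replicate 6, whereas *Mmp8* of the same list had 45 counts in 1 ARG1+ library and 0 in ARG1- libraries. The only neutrophil gene tested, *Cxcr2*, was at 4.33 CPM in ARG1- and 8.62 CPM in ARG1+ microglia (adjusted p = 0.108, 0.0487 with DESeq2's Wald test and 0.049 without ARG1- male replicate 14), and the list summed to 3.75 to 6.96 CPM in ARG1- and 5.86 to 11.5 CPM in ARG1+ libraries. Of the T and NK cell genes, *Klrb1c* was kept only through the ARG1+ libraries, with 0 counts in ARG1- libraries and at most 34 in an ARG1+ library, so its call is not read as a result, and *Cd3e* had 0 counts in all 12.

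Among brain cell markers, 1 of 6 astrocyte genes tested was lower in ARG1+ microglia, *Slc1a3* (175 to 131 CPM, adjusted p = 0.00817), where 9.42% of all genes tested were. Of 6 border macrophage, 6 endothelial, 1 mural, 7 neuronal and 7 oligodendrocyte genes tested, 0 passed in edgeR's quasi-likelihood test, against 15.9% of all genes tested. Of these 27 genes, 6 had an unadjusted p under 0.05. The unadjusted share of all genes is not given here and is at least 15.9%, so the 6 are not read as an excess. *Pf4* stood in both the platelet and the border macrophage list, and *F13a1* in the latter and the monocyte list. Their most abundant tested genes were *Mrc1* (121 against 147 CPM, adjusted p = 0.371), *Pecam1* (36.5 against 53.1 CPM, adjusted p = 0.0913), *Pdgfrb* (1.33 against 0.183 CPM, adjusted p = 0.173), *Snap25* (2.15 against 1.03 CPM, adjusted p = 0.455) and *Mbp* (65.9 against 43.5 CPM, adjusted p = 0.0838), ARG1- first. With DESeq2's Wald test *Pecam1* passed with a higher level in ARG1+ microglia (adjusted p = 0.0318). In edgeR's test it passed with at least 10 counts in every library (adjusted p = 0.0484) and without ARG1- female replicate 1 (adjusted p = 0.0478). *Mbp* passed with a lower level without ARG1- female replicate 1 (adjusted p = 0.0234) and without ARG1+ female replicate 8 (adjusted p = 0.0399). The sums were 176 to 224 CPM in ARG1- and 129 to 150 CPM in ARG1+ libraries for astrocytes, 86.0 to 179 and 57.1 to 122 CPM for oligodendrocytes, and 4.26 to 16.8 and 2.61 to 9.45 CPM for neurons. They were 119 to 144 and 119 to 253 CPM for border macrophages, 32.7 to 58.8 and 44.8 to 84.2 CPM for endothelial cells, and 0.0296 to 3.37 and 0.0317 to 0.477 CPM for mural cells. The median sum was lower in ARG1+ libraries for astrocytes, oligodendrocytes, neurons and mural cells, and higher for border macrophages and endothelial cells. Only the astrocyte ranges did not overlap. That sum was mostly *Slc1a3*, and the other 5 astrocyte genes tested did not pass. What these sums share with the globin difference was not tested.

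The genes whose level followed the summed 5 genes most closely were ranked by Pearson's r of log2(CPM + 0.5) over the 12 libraries among 16903 other genes. The highest were *Rpl13a-ps1* (r = 0.953), *Drap1* (0.953), *Gm49721* (0.952), *Rps9* (0.947), *Gm30934* (0.947), *Bag1* (0.947), *Stx8* (0.947), *2410006H16Rik* (0.947), *Zfand2b* (0.945) and *Srp14* (0.945), and no red cell gene is among them. The 12 libraries form 2 populations that differ in the summed level, so this r is a description of that separation. Over the 6 ARG1- libraries alone, the highest were *Gm37914* (r = 0.992), *Pdzd2* (0.990), *Prkar2b* (0.990), *Plcxd2* (0.989) and *Gm11613* (0.988), where ARG1- female replicate 2 sets the range of the summed level.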

How the data were processed

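Sorted microglia of YARG mice at postnatal day 13 were sequenced as 12 bulk libraries (SMART-Seq v4 and Nextera XT, single-end reads). The values the authors deposited are raw counts per Ensembl gene, without normalization. The submitters' processing notes name bcl2fastq 2.20.0, STAR 2.6.1d, featureCounts 1.5.1, DESeq2 1.28.1 and GRCm38. The handling of multi-mapping reads and of strand is not given in the sources used here. Of 55487 identifiers, 55227 matched GENCODE M21, and the other 260 held 0.0333% of counts. All columns were matched to libraries by name.

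Counts were filtered with filterByExpr on the 4 groups (16908 genes and all 5 members kept), normalized by TMM and tested with edgeR 4.0.16 (glmQLFit and glmQLFTest) in R 4.3.3, with sex as a second term for ARG1 status and 4 group means for the sex contrasts, Benjamini-Hochberg adjustment and a limit of 0.05. Fits were tested on simulated data first. All 12 pairs of replicates within a group differed by 40.7 to 125 times their degrees of freedom in a chi-square of counts, so they are not copies of one another, and each library is counted as 1 replicate. The study describes sorting both populations from pooled brains, so ARG1+ and ARG1- libraries may share a pool. The unpaired fits do not take this into account. P values measure the spread between these pooled libraries.

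The 5 members and all gene lists (globins, red cell, reticulocyte, heme and iron genes, and markers of platelets, neutrophils, monocytes, B, T and NK cells, border macrophages, endothelial, mural and brain cells and microglia) were chosen with earlier results of these data known. Named genes are the members and, per list, the called genes (at most 4, otherwise the 2 with the largest rise and the 2 with the largest fall) and the most abundant gene. Genes at 0 counts, *Slc40a1*, *Slc11a1*, *Klf1*, *Ppbp*, *Igkc*, *Epor*, *S100a8*, *S100a9*, *Mmp8* and *Cd3e* were named after their values were seen. One listed red cell gene, *Ahsp*, had no match by symbol and was not analysed here. The values of some listed genes are not reported here. Alternatives were DESeq2 size factors, no filter, at least 10 counts in every library, ARG1 status alone, DESeq2 1.42.0, total counts, thinned counts, other pseudocounts and each library left out. The sum without *Alas2* and *Hba-a1* against *Hbb-bs* were added after seeing the data.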

Additional observations from a re-analysis of the deposited data

Results flagged for a closer look

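In each population of 6 libraries, the highest and lowest library was set against the others by Dixon's test, in 20 groups. The test assumes normal values, for which chance would flag about 1 group. With most ARG1+ libraries at 0 counts for a globin, this rate does not hold there, and any library with a few reads is flagged. The test flagged 14 groups, all from 2 libraries, and the values share reads, so they are not separate findings. ARG1- female replicate 2 stood far above the other ARG1- libraries for *Hba-a1* (1.70 CPM), *Hbb-bs* (12.7 CPM), *Hbb-bt* (1.95 CPM), the summed beta chains (14.6 CPM), the 4 globins (17.7 CPM) and the 5 genes together (17.7 CPM). ARG1+ male replicate 11 was flagged above the other ARG1+ libraries for *Hba-a1* (0.341 CPM), *Hba-a2* (0.182 CPM), *Hbb-bs* (1.73 CPM), *Hbb-bt* (0.0682 CPM), the summed alpha chains (0.522 CPM), the summed beta chains (1.79 CPM), the 4 globins (2.32 CPM) and the 5 genes together (3.38 CPM). The *Hbb-bt* value is 3 counts, which a count of 0 also allows, so it is not read as set apart.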

How the results depend on the processing

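The difference between populations in the summed level of the 5 genes kept its direction under all 16 alternatives. The genes were chosen for this difference in the same libraries, so its constant direction is a description only. The log2 ratio of ARG1+ to ARG1- was -3.23, and leaving out 1 library at a time gave -5.14 (without ARG1+ male replicate 11) to -2.66 (without ARG1- female replicate 2). Without ARG1+ male replicate 11 the fitted log2 fold change was -7.58 for *Hba-a2* and -7.78 for *Hbb-bs*, against -4.54 and -4.88 with it. For *Alas2* the fitted value lay between -0.96 and 1.20 over the alternatives, within the spread between libraries. The number of genes called between populations was 2682, and 1753 to 2669 with 1 library left out, the lowest without ARG1+ male replicate 12. The highest count, 3764, came with DESeq2. Of the listed red cell, heme and iron genes, 11 to 16 were called, against 14. *Alas1* (-0.118 to 0.015 with 1 library left out) changed sign without ARG1+ female replicate 15 (0.015) and without ARG1- male replicate 14 (0.008), *Ftl1* (-0.183 to 0.021) changed sign without ARG1+ male replicate 12 (0.021), and neither was called. Of the 5 genes, 1 differed by sex with DESeq2 (*Hbb-bs*, in the interaction) and 0 in the other alternatives. The chain correlation had an r of 0.922 to 0.983, and p = 0.114 by exact permutation for *Hba-a1* against *Hbb-bs* alone. Asking for 10 counts or more per library left 0 of the 5 genes to test. No paired analysis was possible because the labels share no replicate number between groups. At these depths a gene with 0 counts in a library may stand at up to 0.102 CPM.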
